A study of Mus musculus with 18 samples.

Results

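The response of the liver to PaPE-1 was compared between 2 mouse models of obesity, DIO and ob/ob, by asking for each gene whether the change from vehicle to PaPE-1 differed between them. Of the 18 libraries of the series, 12 entered this comparison, with 3 libraries in each of 4 groups: DIO PaPE-1, DIO vehicle, ob/ob PaPE-1 and ob/ob vehicle. The difference used throughout is the log2 fold change of PaPE-1 over vehicle in DIO liver minus the same in ob/ob liver, so a positive value means that PaPE-1 moved the gene upward in DIO liver relative to ob/ob liver. All animals were ovariectomized female C57BL/6 mice, whose age is not given in the sources used here. DIO mice were wild type and ate a high-fat diet with added cholesterol, whereas ob/ob mice lacked leptin and ate a normal purified diet. PaPE-1 was given at 300 µg per kg per day for 6 weeks from an implanted osmotic minipump, and vehicle from the same kind of pump. Genotype and diet both separate the models, so that their parts in a difference cannot be told apart. Library names also differ between the models in lane label and length of the index sequence. Whether preparation or sequencing differed is not stated, and any such difference could not be told apart from the models either. The sample descriptions speak of 2 sequenced samples per group, but 3 libraries per group were present and all were used. The p-values rest on the spread between libraries of a group, which the fit shares over the 4 groups and partly across genes.

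PaPE-1 (pathway preferential estrogen 1) is a synthetic relative of estradiol (E2) with weak affinity for estrogen receptor alpha, made to favour signalling that starts outside the nucleus, including crosstalk with mTOR, over direct gene activation by the nuclear receptor. The mTOR kinase is known to raise translation of mRNAs for ribosomal proteins, whose 5′ ends carry a pyrimidine tract called a TOP sequence. In liver, estrogens are known to restrain fat synthesis, and leptin acts on the liver largely through the brain. Counts per gene were scaled by TMM to CPM, the usual unit of reads relative to the size of the library, and 13926 genes had enough counts to be tested.

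The 12 libraries held between 10470665 and 21703791 counted reads. The hepatocyte product albumin (Alb) lay between 62267 and 98542 CPM, as fits liver, Esr1, the gene of estrogen receptor alpha, lay between 10.5 and 51.7 CPM, and Esr2 had 0 counts in all of them. Leptin itself could not check the genotype labels, since Lep had at most 1 count in any library. In the 3 DIO PaPE-1 libraries, levels also sloped with gene length: the slope of the log2 level on the log2 exon length, relative to the vehicle mean of the model, was -0.18 to -0.12, against -0.03 to 0.02 in DIO vehicle, -0.04 to 0.05 in ob/ob PaPE-1 and -0.03 to 0.03 in ob/ob vehicle libraries. Values with this trend removed are therefore given beside the results on short and long genes.

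Across all genes, far more passed the test of PaPE-1 against vehicle in DIO than in ob/ob liver, and few single genes passed the test of the difference itself. In DIO liver, 845 genes were higher (6.07% of those tested) and 491 lower (3.53%) with PaPE-1 at an adjusted p under 0.05 (edgeR's quasi-likelihood test with Benjamini-Hochberg adjustment). These counts were 241 and 68 with the length trend removed, and 113 and 61 without the DIO vehicle library WV8. In ob/ob liver 0 genes passed (0%), where an unadjusted p under 0.05 was met by 129 higher and 210 lower genes, and 0 passed with limma voom and 0 with DESeq2's Wald test. The median absolute log2 fold change was 0.26 in DIO and 0.11 in ob/ob liver. The median standard error was 0.17 in DIO and 0.18 in ob/ob liver. The fit shares the spread of each gene between the models. These standard errors therefore cannot show whether the models differed in noise. With each model fitted alone, 470 genes passed as higher and 309 as lower in DIO liver, and 0 passed in ob/ob liver. Across genes the log2 fold changes of the models were weakly related (Pearson r = 0.097, 13926 genes that are not independent of each other, no shared libraries). The plot of the effect in DIO against ob/ob liver shows this as a cloud that is taller than it is wide.

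**Figure D1:**
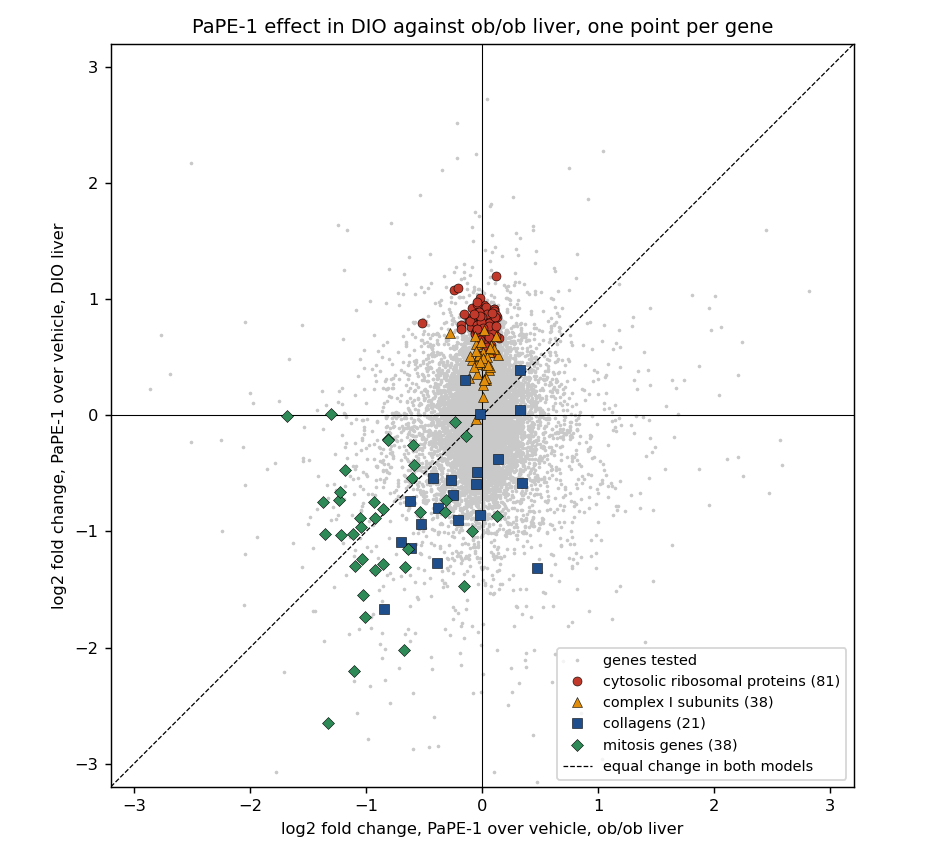
Log2 fold change of PaPE-1 over vehicle in DIO liver (vertical) against ob/ob liver (horizontal), 1 point per gene, with 4 gene lists coloured and the line of equal change dashed; 9 genes lie outside the range shown. The 81 ribosomal protein genes sit above the line near 0 on the horizontal axis, and 37 of the 38 mitosis genes have negative values on each axis.

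At an adjusted p under 0.05, the difference between the models passed for 3 genes (0.0215% of those tested): Malat1, Tspan4 and Rpl22l1. At an unadjusted p under 0.05 it was positive for 1138 genes (8.17%) and negative for 865 (6.21%), where 696.3 in all are the number that p-values of unchanged genes would give. Of these 2003 genes, 1868 had the larger absolute change in DIO liver. They were picked by the same values, and the median absolute change over all genes was also larger in DIO liver (0.26 against 0.11). With a difference of more than 2-fold as well, 89 genes were positive (0.639%) and 217 negative (1.56%). With the length trend removed, 872 of the 13926 genes were positive and 431 negative at an unadjusted p under 0.05.

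Transcripts that the differences below turn on are shown here by 30 bases around their annotated start, from RefSeq (GRCm38.p6), 5′ to 3′ on the strand of the gene, with the start at base 16. Capitals mark a TOP-like tract, defined as a C within 5 bases of the start that is followed by at least 4 pyrimidines. The first 3 are the genes that passed the test, Rps27 and Rpl31 stand for the ribosomal protein genes, and Col5a3 came nearest to the threshold of those that missed it.
Rpl22l1: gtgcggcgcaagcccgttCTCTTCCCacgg
Tspan4: aagatccagagccccgccccgcatctccct
Malat1: ctccgggctctgcgtcaggcattcaggcag
Rps27: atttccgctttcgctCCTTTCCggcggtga
Rpl31: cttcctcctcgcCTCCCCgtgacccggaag
Col5a3: gggcgcggccagggcggggtctcgggcagt
They lie at chr3:28805493-28805522 (Rpl22l1, plus strand), chr7:141475221-141475250 (Tspan4, plus strand), chr19:5802658-5802687 (Malat1, minus strand), chr3:90213634-90213663 (Rps27, minus strand), chr1:39367836-39367865 (Rpl31, plus strand) and chr9:20815053-20815082 (Col5a3, minus strand). For Tspan4 this is 1 of its annotated starts, and another of them has a tract. Coordinates of whole genes below are those of the count tables, in GRCm39.

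Malat1, a long noncoding RNA of nuclear speckles, lay on opposite sides of vehicle in the models, and was called in DIO liver. It is annotated at chromosome 19, 5845718 to 5852700. Its level was 106, 109 and 92.5 CPM in the DIO PaPE-1 libraries, against 174, 206 and 174 CPM in DIO vehicle. The ob/ob level was 98.4, 92.2 and 102 CPM with PaPE-1, against 73.0, 73.3 and 78.2 CPM with vehicle. The libraries did not overlap in either model, being lower with PaPE-1 in DIO and higher with PaPE-1 in ob/ob liver. The difference was -1.23 (SE 0.16, adjusted p = 0.0152, edgeR), from a log2 fold change of -0.85 in DIO (adjusted p = 0.00476) and 0.38 in ob/ob liver (adjusted p = 1). With the length trend removed it was -1.02 (adjusted p = 0.0207).

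Tspan4, a tetraspanin of the cell surface, was called higher with PaPE-1 in DIO liver (log2 fold change 1.06, adjusted p = 0.00134) and not in ob/ob liver (-0.08, edgeR). It lies on chromosome 7, 141055149 to 141073340. DIO PaPE-1 libraries had 56.8, 60.3 and 65.2 CPM, against 28.7, 25.8 and 32.8 CPM in DIO vehicle. The ob/ob libraries had 49.96, 48.8 and 44.5 CPM with PaPE-1, against 47.6, 53.2 and 50.7 CPM with vehicle, and these overlapped. In DIO liver, PaPE-1 thus stood above every other library of the comparison and vehicle below every other. The difference was 1.14 (SE 0.16, adjusted p = 0.0201, edgeR), and 1.16 with the length trend removed (adjusted p = 0.0207).

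Rpl22l1, a paralog of the ribosomal protein gene Rpl22 that also acts in RNA splicing, again lay on opposite sides of vehicle, and was called higher in DIO liver (log2 fold change 0.80, adjusted p = 0.00947, edgeR). Its exons lie on chromosome 3 between 28859657 and 28861573. DIO PaPE-1 libraries had 39.8, 32.1 and 27.2 CPM, against 19.5, 18.9 and 18.6 CPM in DIO vehicle. The ob/ob libraries had 19.97, 20.6 and 17.7 CPM with PaPE-1, against 25.8, 32.7 and 24.9 CPM with vehicle, so that the groups overlapped in neither model. The difference was 1.31 (SE 0.21, adjusted p = 0.0474, edgeR). It was 0.95 with the length trend removed and then did not pass (adjusted p = 0.181).

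These calls rest on all 12 libraries. With each library left out in turn, Malat1 passed in 8 of 12 fits, Tspan4 in 6 and Rpl22l1 in 2, with differences of -1.29 to -1.15, 1.06 to 1.24 and 1.14 to 1.43. Leaving out the DIO PaPE-1 library WP12 had the opposite effect, and 70 genes were then called higher and 44 lower. No other fit with a library left out called more than 4 higher and 1 lower.

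**Figure D2:**
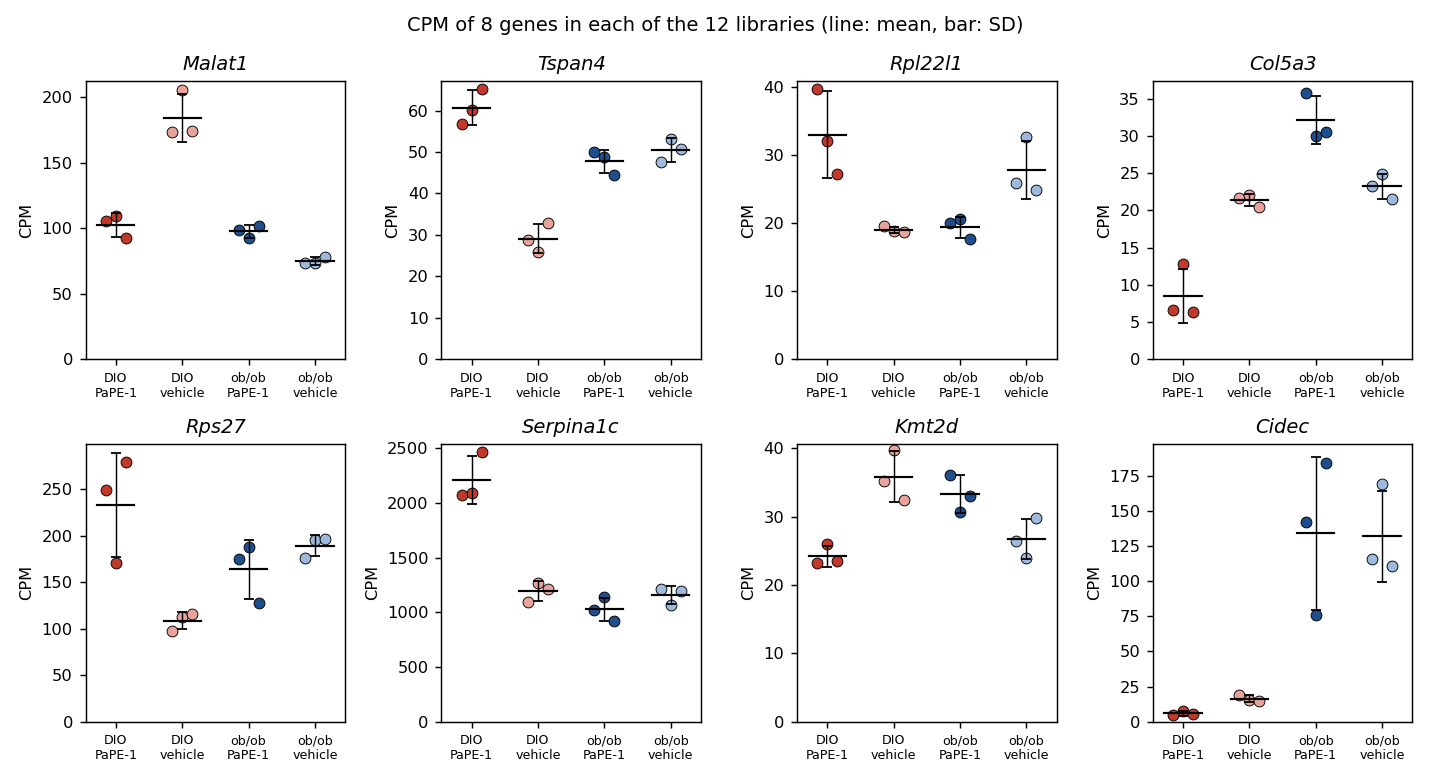
CPM (linear axis from 0) of 8 genes in each of the 12 libraries, by group, with the mean as a line and the SD as a bar. In Malat1, Rpl22l1, Col5a3 and Kmt2d the PaPE-1 and vehicle libraries separate in opposite directions in the 2 models; in Tspan4, Rps27, Serpina1c and Cidec they separate in DIO liver and overlap in ob/ob liver.

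The remaining genes with the smallest p-values did not pass an adjusted p of 0.05 in the fit of all 12 libraries, and their values are given as such. Above 0, Srm, the spermidine synthase of polyamine metabolism, had 30.1, 23.4 and 27.0 CPM in DIO PaPE-1, against 15.6, 13.9 and 13.1 CPM in DIO vehicle, and overlapping libraries in ob/ob liver (difference 1.01, adjusted p = 0.0721). Map2k6, a kinase that activates p38, had 18.7, 20.2 and 13.7 CPM in DIO PaPE-1, against 9.82, 11.2 and 8.98 CPM in DIO vehicle. Map2k6 lay the other way in ob/ob liver, at 5.01, 5.89 and 5.93 CPM with PaPE-1, against 8.70, 7.56 and 7.33 CPM with vehicle (difference 1.30, adjusted p = 0.0971). Gmnn, the inhibitor of DNA replication licensing geminin, was likewise higher with PaPE-1 in DIO and lower with PaPE-1 in ob/ob liver in every library, with a difference of 1.12 (adjusted p = 0.0971). Dctpp1, a pyrophosphatase that cleans the nucleotide pool, had a difference of 0.99 (adjusted p = 0.121). Map2k6 is a long gene of 13337 exonic bases, and with the length trend removed its difference was 1.59 and passed (adjusted p = 0.0207). The shorter genes did not pass with the trend removed, at 0.78 for Srm (adjusted p = 0.264), 0.65 for Dctpp1 (adjusted p = 0.277) and 1.08 for Gmnn (adjusted p = 0.153).

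Below 0, Col5a3, a chain of collagen V, came nearest to the threshold. It had 6.57, 12.7 and 6.31 CPM in DIO PaPE-1, against 21.6, 22.0 and 20.5 CPM in DIO vehicle, and 35.9, 30.1 and 30.6 CPM in ob/ob PaPE-1, against 23.4, 24.9 and 21.5 CPM in ob/ob vehicle. No library overlapped in either model, and the directions were opposite (difference -1.78, SE 0.29, adjusted p = 0.059, edgeR). The high DIO PaPE-1 value of 12.7 CPM is that of WP12, and without this library the adjusted p was 6.69e-05. Trim2, a ubiquitin ligase, had 12.5, 10.2 and 11.3 CPM in DIO PaPE-1, against 25.9, 24.0 and 18.5 CPM in DIO vehicle, and a log2 fold change of 0.00 in ob/ob liver (difference -1.01, adjusted p = 0.0971). Spon2, a secreted matrix protein, had 3.62, 2.15 and 2.85 CPM in DIO PaPE-1, against 5.51, 7.74 and 8.20 CPM in DIO vehicle, with overlapping ob/ob libraries (difference -1.33, adjusted p = 0.139). The others with a negative difference were Kmt2d, a histone methyltransferase (-0.88), Zkscan8, a zinc-finger factor (-1.09), Mtm1, a lipid phosphatase (-0.86), Gldc, of glycine breakdown (-0.84), Adamts1, a matrix protease (-1.03), Syne1, of the nuclear envelope (-0.82), Tasor, of a silencing complex (-0.87), and Otud4, a deubiquitinase (-0.72), with adjusted p-values between 0.117 and 0.139.

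Ribosomal protein genes formed a uniform group. All 81 tested genes of cytosolic ribosomal proteins had a positive difference, between 0.44 and 1.32, with a median of 0.79 against 0.00 over all genes. At an unadjusted p under 0.05, 80 of 81 were positive, beside the 8.17% of all genes, and 1, Rpl22l1, passed at an adjusted p under 0.05. In DIO liver 81 of 81 were called higher with PaPE-1 (median log2 fold change 0.80), whereas the median in ob/ob liver was 0.02 and 0 were called. The sum of their CPM lay between 15817 and 21777 in DIO PaPE-1 libraries, against 11068 to 11931 in DIO vehicle, and between 13097 and 17151 in ob/ob PaPE-1, against 14427 to 16199 in ob/ob vehicle. DIO PaPE-1 and vehicle libraries did not overlap in this sum, and the ob/ob libraries did.

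Rps27, of the small subunit, had 249, 170 and 279 CPM in DIO PaPE-1, against 97.8, 113 and 115 CPM in DIO vehicle. Rps27 in ob/ob liver had 175, 188 and 128 CPM with PaPE-1, against 176, 195 and 196 CPM with vehicle. DIO PaPE-1 stood above DIO vehicle in every library, and the ob/ob groups overlapped (difference 1.31, SE 0.25, adjusted p = 0.0971). Rps28, Rpl27, Rpl31 and Rpl37 had differences of 0.92, 0.96, 0.94 and 0.91 (adjusted p-values of 0.125 to 0.139). The low value of Rps27 in DIO PaPE-1 is again WP12, whose mean over the 81 genes was 0.48 log2 units above the DIO vehicle mean, against up to 0.93 in the other DIO PaPE-1 libraries. Without WP12, 41 of the 81 genes passed an adjusted p of 0.05, all with a positive difference, among 70 such genes of all kinds. Of the 12 fits with a library left out, this one gave the most such genes, and the next gave 4. The median difference of the 81 genes ranged from 0.65 without the ob/ob PaPE-1 library L16 to 0.92 without WP12. These transcripts are short, with a median of 821 exonic bases against 3620 over all genes. With the length trend removed their median difference was 0.50 and 73 had an unadjusted p under 0.05, beside 872 positive of all 13926 genes. Many ribosomal protein genes have processed pseudogenes, so reads that fit both may be missing from their counts. Of the 60 with a promoter in the sequence table, 30 (50%) had the TOP-like tract, against 23.9% of the 11018 tested genes with a promoter. Genes with the tract that are not ribosomal protein genes had a median difference of -0.00 (2602 genes), and those without it -0.00 (8356 genes).

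Translation factors followed in part. Of 36 initiation and elongation factor genes, 29 had a positive difference (median 0.27). At an unadjusted p under 0.05, 13 were positive and 0 negative, beside 8.17% and 6.21% of all genes. With the length trend removed the median was 0.22, and 5 were positive and 0 negative at this threshold. Over all 13926 genes, 872 were then positive and 431 negative. Eef1d, of the elongation factor 1 complex, had 138, 106 and 141 CPM in DIO PaPE-1, against 69.1, 75.3 and 81.5 CPM in DIO vehicle, and 85.4, 92.9 and 71.2 CPM in ob/ob PaPE-1, against 77.8, 80.6 and 84.5 CPM in ob/ob vehicle. Its DIO libraries were apart and its ob/ob libraries overlapped (difference 0.73, adjusted p = 0.158). Eif3h, a subunit of initiation factor 3, had a difference of 0.65 (adjusted p = 0.158). Among 25 genes of mTOR signalling the median difference was 0.02. At an unadjusted p under 0.05, 4 were positive (16%) and 2 negative (8%), beside 8.17% and 6.21% of all genes. With the length trend removed, 0 were positive and 1 negative at this threshold. The member with the smallest p, Rictor, a defining subunit of mTOR complex 2, had 8.98, 12.2 and 9.16 CPM in DIO PaPE-1, against 17.3, 18.7 and 14.95 CPM in DIO vehicle, and overlapping ob/ob libraries (difference -1.01, adjusted p = 0.15).

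**Figure D3:**
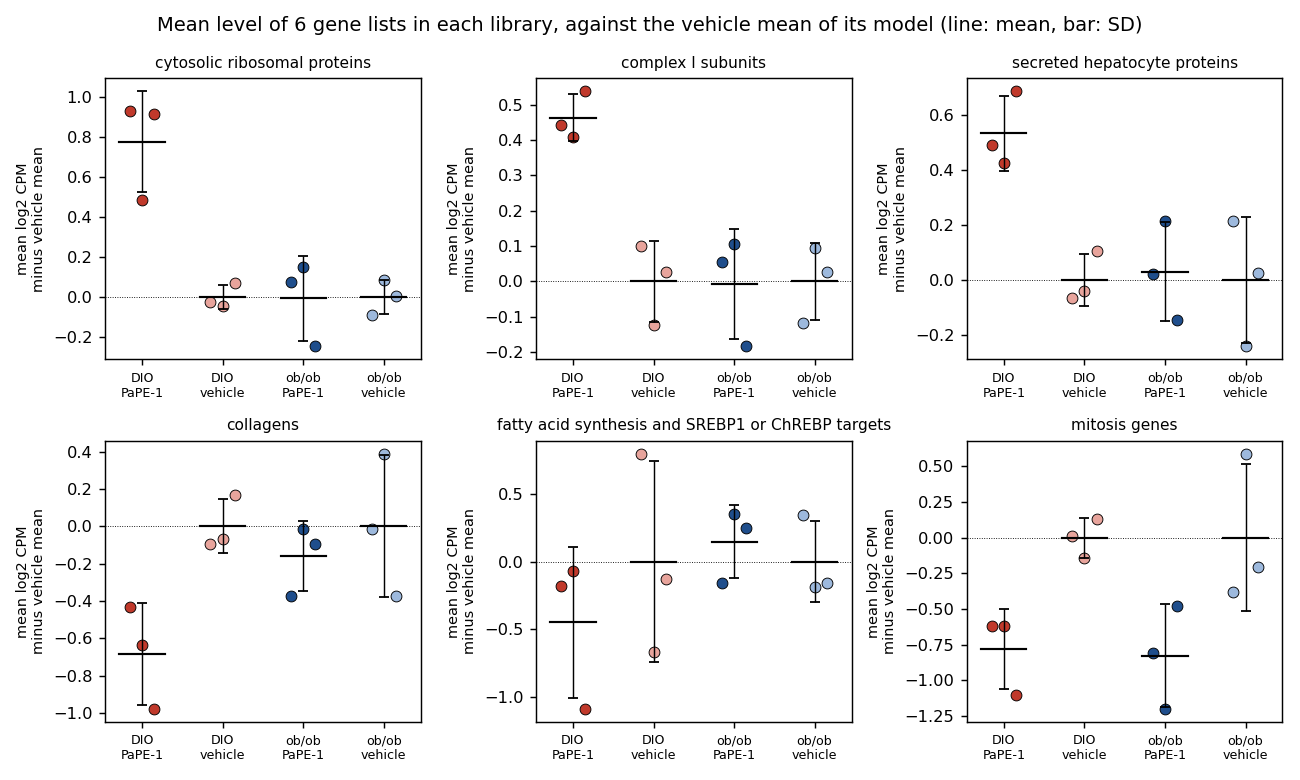
Mean log2 CPM of 6 gene lists in each library, minus the vehicle mean of its model, with the group mean as a line and the SD as a bar. For ribosomal proteins, complex I and secreted proteins the DIO PaPE-1 libraries lie above all others of their panel; for mitosis genes all PaPE-1 libraries lie below the vehicle mean of their model; for fatty acid synthesis the libraries of each group are widely spread.

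Nuclear genes of mitochondrial complexes had positive differences too, with smaller medians. Respiratory complex I passes electrons from NADH into the chain, and all 38 of its tested subunit genes had a positive difference (median 0.48), with 26 at an unadjusted p under 0.05, beside 8.17% of all genes. The median log2 fold change of these subunits was 0.48 in DIO and 0.01 in ob/ob liver, and 27 were called higher in DIO, beside 6.07% of all genes. With the length trend removed the DIO median was 0.16. The difference was positive for 13 of 13 genes of cytochrome c oxidase (median 0.50), 15 of 15 of ATP synthase (0.45), 13 of 14 in a list of cytochrome c and the subunits of complexes II and III (0.39) and 75 of 78 of the mitochondrial ribosome (0.41). In these lists 11, 10, 6 and 42 genes were positive at an unadjusted p under 0.05, and 0 were negative. Members passing the adjusted threshold numbered 0 in each of the lists.

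Ndufb4, an accessory subunit of complex I, had 12.8, 12.7 and 17.2 CPM in DIO PaPE-1, against 8.96, 7.48 and 9.71 CPM in DIO vehicle. The ob/ob libraries had 16.7, 17.1 and 13.7 CPM with PaPE-1, against 15.9, 22.3 and 19.5 CPM with vehicle. DIO libraries did not overlap and ob/ob libraries did (difference 0.99, adjusted p = 0.145). Ndufc2 and Ndufa2, also of complex I, had differences of 0.62 and 0.72, and Cox4i1, of cytochrome c oxidase, had 0.59. Fdx1, an electron carrier for mitochondrial P450 enzymes, had 124, 117 and 132 CPM in DIO PaPE-1, against 75.9, 74.9 and 79.1 CPM in DIO vehicle, and overlapping ob/ob libraries (difference 0.73, adjusted p = 0.139). Etfb, which passes electrons from fat oxidation to the chain, had a difference of 0.62, and Mrpl13 and Mrpl24, of the mitochondrial ribosome, 0.75 and 0.58.

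These genes too are short, with a median of 922 exonic bases for complex I and 545 for cytochrome c oxidase. With the length trend removed the medians were 0.18 for complex I, 0.19 for cytochrome c oxidase, 0.15 for ATP synthase, 0.15 for the list with cytochrome c and 0.24 for the mitochondrial ribosome, against 0.05 over all genes. The number with a positive difference at an unadjusted p under 0.05 was then 6 of 38, 1 of 13, 1 of 15, 0 of 14 and 22 of 78. Over all genes it was then 872 of 13926. Fdx1, with 3441 exonic bases, stood at 0.77. The letters GCGCA, any base, GCGC, which NRF1, a regulator of respiratory genes, is known to bind, were found on either strand in 7 of 34 complex I promoters (20.6%) and 6 of 14 of ATP synthase (42.9%), but in 1 of 11 of cytochrome c oxidase (9.09%), against 10.7% of all tested genes with a promoter, in the 250 bases before and 50 after the start. Over all genes the median difference was 0.02 with these letters and -0.00 without them.

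**Figure D4:**
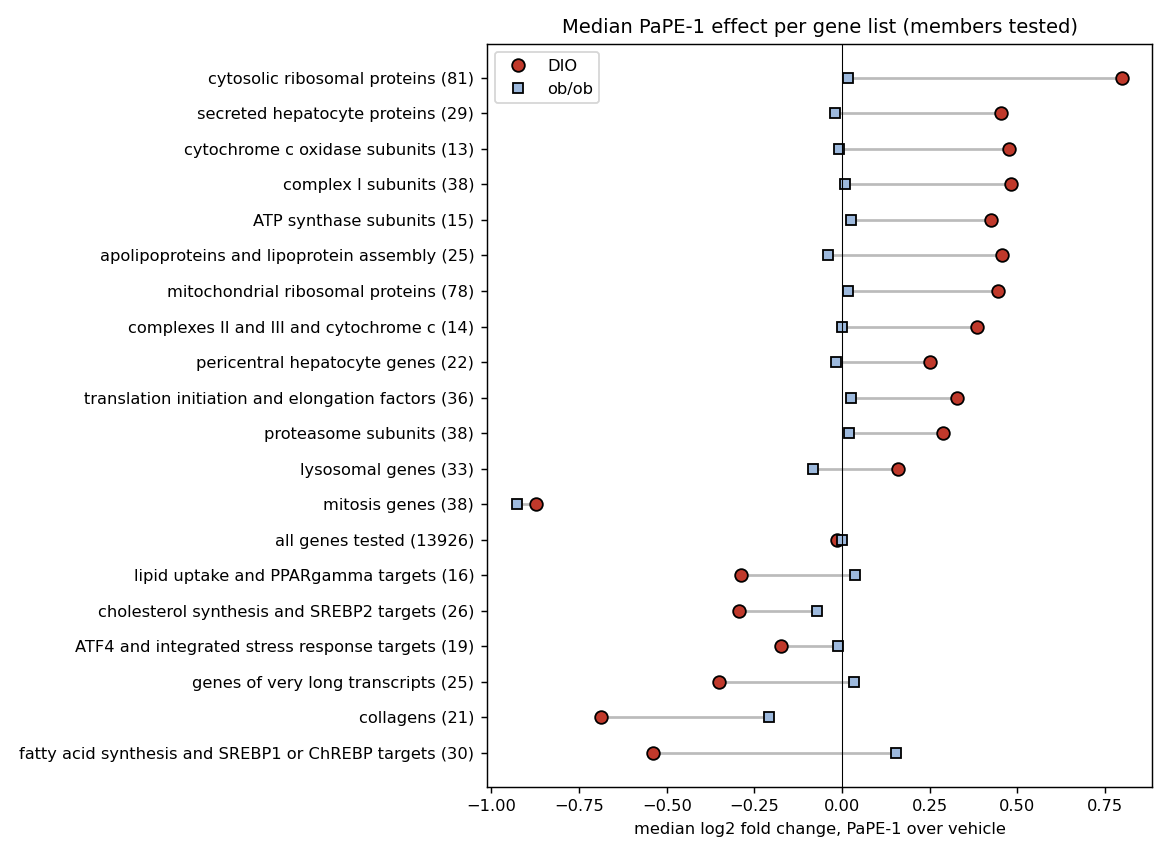
Median log2 fold change of PaPE-1 over vehicle in DIO (circles) and ob/ob liver (squares) for 19 gene lists and all genes tested, ordered by the median difference, with the number of genes tested in brackets. The ob/ob medians stay near 0 except for mitosis genes (-0.93) and collagens (-0.21), and the DIO medians span 0.80 for ribosomal proteins to -0.87 for mitosis genes.

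Along the whole range of gene length the difference fell steadily. Over 10 bins of equal gene number, its median was 0.40 in genes of 60 to 1291 exonic bases and -0.26 in genes of 9497 to 114472 bases. DIO liver had medians of 0.41 and -0.27 in these bins, against 0.02 and 0.00 in ob/ob liver. Of 25 genes with very long transcripts, 24 had a negative difference (median -0.39) and 10 were negative at an unadjusted p under 0.05, beside 6.21% of all genes. Kmt2d, of 23080 exonic bases, had 23.1, 25.9 and 23.5 CPM in DIO PaPE-1, against 35.2, 39.8 and 32.5 CPM in DIO vehicle, and 36.2, 30.7 and 33.1 CPM in ob/ob PaPE-1, against 26.4, 24.0 and 29.7 CPM in ob/ob vehicle. Its groups were apart in opposite directions, with a difference of -0.88 and of -0.55 once the trend was removed. The median of the 25 genes was then -0.07, and 2 were negative at an unadjusted p under 0.05, beside 431 of all 13926 genes. Whether RNA quality or library preparation took part in the trend was not tested.

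**Figure D5:**
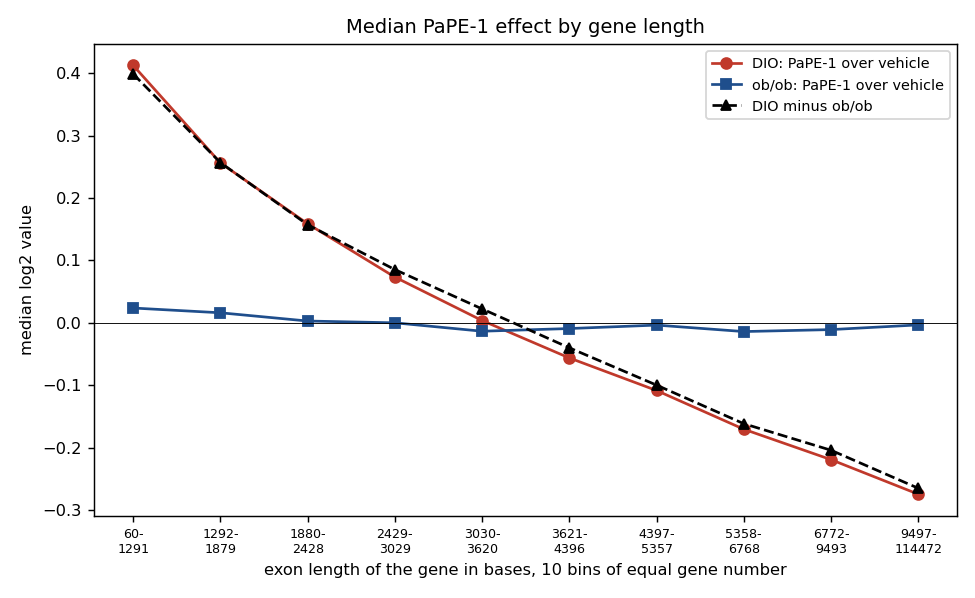
Median log2 fold change of PaPE-1 over vehicle in DIO (circles) and ob/ob liver (squares), and of the difference (triangles), in 10 bins of exon length with equal numbers of genes. The DIO and difference medians fall from the shortest to the longest bin, 0.40 to -0.26 for the difference, and the ob/ob medians stay between -0.01 and 0.02.

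Secreted products of the hepatocyte had positive differences throughout. All 29 tested genes were above 0 (median 0.52). Of these, 12 had an unadjusted p under 0.05, beside 8.17% of all genes, and 0 an adjusted p under 0.05. In DIO liver 11 were called higher, beside 6.07% of all genes, and the medians were 0.45 in DIO and -0.02 in ob/ob liver. Serpina1c, a gene of the alpha-1-antitrypsin family of protease inhibitors, had 2070, 2094 and 2465 CPM in DIO PaPE-1, against 1093, 1273 and 1210 CPM in DIO vehicle. Serpina1c in ob/ob liver had 1024, 1137 and 919 CPM with PaPE-1, against 1212, 1068 and 1198 CPM with vehicle. The DIO groups were apart and the ob/ob groups overlapped (difference 1.07, SE 0.20, adjusted p = 0.0971). The near-identical copies Serpina1a and Serpina1b had differences of 1.03 and 0.77, and as reads may be split among them they do not count as separate cases. Rbp4, the carrier of retinol in plasma, had a difference of 0.75 (adjusted p = 0.183). With the length trend removed the median of the list was 0.35, and 5 genes had a positive difference at an unadjusted p under 0.05. Of all 13926 genes, 872 did so.

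Pericentral hepatocyte genes, which are expressed around the central vein, had a median difference of 0.32, or 0.40 with the length trend removed. Of 22 such genes, 7 were positive and 0 negative at an unadjusted p under 0.05, beside 8.17% and 6.21% of all genes. Cyp2a5, a P450 enzyme, had 2752, 1952 and 3226 CPM in DIO PaPE-1, against 740, 1274 and 1017 CPM in DIO vehicle, and 491, 367 and 646 CPM in ob/ob PaPE-1, against 520, 521 and 1013 CPM in ob/ob vehicle. DIO PaPE-1 lay above all other libraries, while the ob/ob groups overlapped (difference 1.84, SE 0.44, adjusted p = 0.158). Its close relatives in the gene cluster could share its reads. Lect2, a secreted factor, Notum, which inactivates Wnt proteins, and Cyp1a2, a P450 enzyme, had differences of 0.75, 0.84 and 1.08. Without the ob/ob vehicle library L13 the median of the list was 0.08, and without the ob/ob PaPE-1 library L6 it was 0.51. Of 21 periportal and urea cycle genes, 0 had an unadjusted p under 0.05 (median 0.21).

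Among genes whose level differs between the sexes, single members had differences of either sign that did not pass. A1bg, a gene higher in females, had 8.80, 14.6 and 20.7 CPM in DIO PaPE-1, against 70.9, 40.7 and 77.6 CPM in DIO vehicle, and between 0.720 and 1.57 CPM in ob/ob liver (difference -2.47, SE 0.61, adjusted p = 0.16). Its DIO groups were apart and its ob/ob groups overlapped at a low level. Mup3, of the major urinary proteins, had a difference of 1.13, and Cyp17a1, of steroid synthesis, -1.62 (adjusted p-values of 0.164 and 0.215). The median difference was 0.01 over 36 female-biased and 0.36 over 31 male-biased genes. At an unadjusted p under 0.05, 3 female-biased genes were positive (8.33%) and 2 negative (5.56%). Of the male-biased genes 2 were positive (6.45%) and 0 negative, beside 8.17% and 6.21% of all genes.

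Genes of fat synthesis had mostly negative differences that were smaller than the spread between animals. Of 30 genes in the list of SREBP1 and ChREBP targets, which turn sugar into fatty acids, 25 were below 0 (median -0.68). Of these, 4 had an unadjusted p under 0.05, beside 6.21% of all genes, and 0 an adjusted p under 0.05. The median log2 fold change of the list was -0.54 in DIO and 0.15 in ob/ob liver. Fasn, the fatty acid synthase, had 1252, 1047 and 278 CPM in DIO PaPE-1, against 3847, 378 and 886 CPM in DIO vehicle, and 1555, 2377 and 2488 CPM in ob/ob PaPE-1, against 2679, 1407 and 1393 CPM in ob/ob vehicle. The groups overlapped in both models, and the difference of -1.22 had a 95% interval of -3.88 to 1.45. Without the DIO vehicle library WV7, which had the highest level, the difference for Fasn was 0.21 and the median of the list was -0.17. Insig2, which retains SREBP proteins in the endoplasmic reticulum, was the 1 member called in DIO liver, with 109, 126 and 89.7 CPM with PaPE-1, against 220, 164 and 187 CPM with vehicle (difference -0.73, adjusted p = 0.223). Elovl5, which lengthens fatty acids, had a difference of -1.13 (adjusted p = 0.306). The 26 genes of cholesterol synthesis had a median of -0.30 and 0 with an unadjusted p under 0.05, and the median ranged from -0.80 without the ob/ob vehicle library L3 to -0.01 without WV7.

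Of 30 genes of triglyceride synthesis and lipid droplets, 4 had DIO PaPE-1 libraries above and 4 below all DIO vehicle libraries, no larger a share than the 32.3% of all genes. The members named here are those with small p-values. Cidec, which fuses lipid droplets, had 4.70, 7.89 and 5.22 CPM in DIO PaPE-1, against 19.3, 15.3 and 14.9 CPM in DIO vehicle, and 142, 76.2 and 184 CPM in ob/ob PaPE-1, against 115, 169 and 111 CPM in ob/ob vehicle. Its DIO groups were apart, its ob/ob groups overlapped at a far higher level, and the difference was -1.49 (SE 0.44, adjusted p = 0.196). Mogat1, of triglyceride synthesis, had 1.15, 2.45 and 2.71 CPM in DIO PaPE-1, against 5.08, 3.91 and 4.90 CPM in DIO vehicle, and overlapping ob/ob libraries (difference -1.27, adjusted p = 0.158). Both were called lower in DIO liver. Their regulator Pparg had a difference of -0.43 (adjusted p = 0.296). In the list of 16 genes of lipid uptake and PPARgamma targets, 4 were negative and 0 positive at an unadjusted p under 0.05. The shares over all genes were 6.21% and 8.17%.

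Of 19 genes of the ATF4 stress pathway, 2 had DIO PaPE-1 libraries all below DIO vehicle, no larger a share than the 2067 of 13926 genes tested. Atf5, a transcription factor induced by stress, had 305, 273 and 258 CPM in DIO PaPE-1, against 439, 368 and 384 CPM in DIO vehicle. The ob/ob libraries had 792, 888 and 546 CPM with PaPE-1, against 567, 497 and 404 CPM with vehicle. Only the DIO groups were free of overlap, and the difference was -1.11 (SE 0.25, adjusted p = 0.139). Fgf21, a hormone of the stressed liver, had 2.65, 1.60 and 0.882 CPM in DIO PaPE-1, against 2.87, 3.30 and 3.40 CPM in DIO vehicle, and overlapping ob/ob libraries between 18.3 and 30.9 CPM (difference -1.26, adjusted p = 0.16). Over 19 genes of the pathway the median was -0.31. At an unadjusted p under 0.05, 4 were negative and 1 positive, beside 6.21% and 8.17% of all genes. The median ranged from -0.53 without the ob/ob vehicle library L3 to 0.04 without the ob/ob PaPE-1 library L5.

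Collagen genes had negative medians with PaPE-1 in both models. Of 21 tested genes, 18 had a negative difference (median -0.43), 4 at an unadjusted p under 0.05, beside 6.21% of all genes, and 0 at an adjusted p under 0.05. The median log2 fold change was -0.69 in DIO and -0.21 in ob/ob liver. In DIO liver 4 were called lower, beside 3.53% of all genes: Col5a3, Col4a1, Col4a2 and Col14a1. Col4a1, of the basement membrane, had 21.4, 29.0 and 19.9 CPM in DIO PaPE-1, against 46.3, 41.2 and 44.2 CPM in DIO vehicle, and 56.5, 57.4 and 55.7 CPM in ob/ob PaPE-1, against 69.9, 68.9 and 57.1 CPM in ob/ob vehicle (difference -0.70, SE 0.19, adjusted p = 0.16). Its libraries were apart in DIO liver and overlapped in ob/ob liver. Col14a1 and Col16a1 had differences of -0.45 and -0.92, whereas Col1a1, of the main fibrillar collagen, had -0.39 from -1.09 in DIO and -0.70 in ob/ob liver. Col5a3 alone of these went up with PaPE-1 in ob/ob liver in every library. Without the ob/ob vehicle libraries L8 and L13 in turn the median difference was -0.77 and -0.23. The list has a median of 6450 exonic bases, and with the length trend removed its median difference was -0.24. Summed CPM of 22 stellate cell and myofibroblast markers was 722 to 727 in DIO PaPE-1, against 818 to 936 in DIO vehicle, and 930 to 1053 in ob/ob PaPE-1, against 965 to 1179 in ob/ob vehicle, and their part in the result was not tested. Fewer such cells and less RNA per cell cannot be told apart in whole liver.

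Mitosis genes had negative medians of similar size in both models. Their median log2 fold change was -0.87 in DIO and -0.93 in ob/ob liver, and the median difference over 38 genes was 0.05, with 20 above 0 and 18 below. At an unadjusted p under 0.05, 2 were positive and 1 negative, beside 8.17% and 6.21% of all genes. The groups were free of overlap, with PaPE-1 below vehicle, for 18 genes in DIO and 17 in ob/ob liver. Of all 13926 genes, 2067 were apart in this direction in DIO and 413 in ob/ob liver. In DIO liver Mki67, Pbk, Prc1 and Top2a were called lower, beside 3.53% of all genes, and 0 of the list were called in ob/ob liver. Birc5, survivin, had 3.52, 2.29 and 3.14 CPM in ob/ob PaPE-1, against 5.82, 11.1 and 5.66 CPM in ob/ob vehicle, and overlapping DIO libraries between 0.543 and 2.10 CPM (difference 1.32, 95% interval 0.20 to 2.44, adjusted p = 0.276). Prc1, of the mitotic spindle, had 0.121, 0.350 and 0.271 CPM in DIO PaPE-1, against 1.05, 0.923 and 1.17 CPM in DIO vehicle (difference -1.34, 95% interval -2.57 to -0.11, adjusted p = 0.303). Without the ob/ob vehicle library L8, whose Birc5 level was the highest, the median difference of the list was -0.36. Tk1, thymidine kinase, was higher with PaPE-1 in DIO liver, with 33.4, 52.1 and 40.7 CPM with PaPE-1, against 23.0, 18.8 and 22.4 CPM with vehicle, and overlapping ob/ob libraries (difference 1.25, adjusted p = 0.139).

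Of 19 clock genes, 3 were positive (15.8%) and 1 negative (5.26%) at an unadjusted p under 0.05, beside 8.17% and 6.21% of all genes. Their median difference was 0.13, and -0.07 without WP12. In DIO liver 5 had PaPE-1 libraries above and 2 below all vehicle libraries, where 32.3% of all genes were apart in either direction. Among them, 2 members had smaller p-values. Clock, of the positive limb, had 14.4, 15.2 and 15.4 CPM in DIO PaPE-1, against 23.0, 29.4 and 23.3 CPM in DIO vehicle (difference -0.70). Dbp, an output of the clock, had 232, 287 and 227 CPM in DIO PaPE-1, against 107, 171 and 143 CPM in DIO vehicle (difference 0.89, adjusted p = 0.16 for each). Both had overlapping ob/ob libraries, and the hour of killing is not given in the sources used here. Esr1 had 40.4, 51.7 and 51.4 CPM in DIO PaPE-1, against 46.6, 32.7 and 33.7 CPM in DIO vehicle, and 11.3, 17.1 and 12.8 CPM in ob/ob PaPE-1, against 17.9, 10.5 and 10.7 CPM in ob/ob vehicle. Its groups overlapped in both models (difference 0.27, 95% interval -0.39 to 0.94), while the DIO libraries stood above the ob/ob libraries in every case. Gsta1, a glutathione transferase, was below vehicle in every PaPE-1 library of both models, at 0.603, 0.450 and 0 CPM in DIO PaPE-1, against 1.87, 1.19 and 2.62 CPM in DIO vehicle, and 8.80, 6.88 and 10.9 CPM in ob/ob PaPE-1, against 11.6, 19.1 and 21.6 CPM in ob/ob vehicle (difference -1.37, 95% interval -2.81 to 0.08).

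Markers of other cells were checked beside these results. Of 27 liver endothelial markers the median difference was -0.04, and the member with the smallest p, Vwf, of clotting and the vessel wall, had 3.26, 4.55 and 2.65 CPM in DIO PaPE-1, against 6.32, 8.003 and 8.79 CPM in DIO vehicle, with overlapping ob/ob libraries (difference -1.48, adjusted p = 0.139). Summed lymphocyte markers were 34.5 to 61.4 CPM in DIO PaPE-1, against 57.6 to 78.5 CPM in DIO vehicle, and 19.9 to 26.7 CPM in ob/ob PaPE-1, against 20.1 to 43.1 CPM in ob/ob vehicle. Kupffer cell markers had a median difference of 0.17 over 17 genes and overlapped in sum between PaPE-1 and vehicle in both models. Some libraries stood apart in other markers. Summed CPM of 10 erythroid markers was 2759 in L5, 1895 in L6 and 438 in L16 of ob/ob PaPE-1, against 330 to 571 in ob/ob vehicle, and 214 to 551 in DIO PaPE-1, against 224 to 255 in DIO vehicle. The 7 neutrophil markers tested all had a negative difference (median -1.20), which was 0.04 without L5, and 0 had an unadjusted p under 0.05. Summed CPM of 11 cholangiocyte markers was 151 to 183 in ob/ob PaPE-1, against 588 in L8 and 153 and 254 in the other ob/ob vehicle libraries. Leaving out L5 or L8 moved the median of the ATF4 or the mitosis list, as given above. Other libraries moved these medians too, to -0.53 for ATF4 without L3 and 0.25 for mitosis without WP24. The part of these cells in the results was not tested.

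The same contrast can be read against E2, which was given at 5 µg per kg per day, a different dose. The difference of PaPE-1 between the models minus that of E2 was tested over all 18 libraries, and 908 genes were positive (6.41% of 14171) and 1083 negative (7.64%) at an adjusted p under 0.05. The vehicle libraries drop out of this contrast, but the PaPE-1 libraries, with the length slopes given above, are shared with the results so far. Of the 81 ribosomal protein genes, 77 were called positive (median 0.92), and the median difference of E2 between the models was -0.12. Of 38 complex I genes, 20 were called positive (median 0.63), and of 25 genes with very long transcripts 9 were called negative (median -0.63). Mitosis genes had a median of -0.75, with 3 of 38 called negative.

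For 3 of the genes with small p-values the test did not separate the ligands, within wide errors. Malat1 had a difference of -1.13 between the models with E2, from -0.05 in DIO and 1.08 in ob/ob liver, and PaPE-1 minus E2 came to -0.10 (SE 0.46, adjusted p = 0.908). Tspan4 had 1.11 with E2, from 0.67 in DIO and -0.44 in ob/ob liver, and PaPE-1 minus E2 came to 0.03 (SE 0.33, adjusted p = 0.956). Col5a3 had -1.93 with E2, from -1.22 in DIO and 0.71 in ob/ob liver, and PaPE-1 minus E2 came to 0.14 (SE 0.41, adjusted p = 0.843). The E2 and PaPE-1 values share their vehicle libraries and are given side by side only. Rpl22l1 was otherwise, at 0.29 with E2 and 1.02 for PaPE-1 minus E2 (adjusted p = 0.0115).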

How the data were processed

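Liver RNA-seq counts were used from 12 libraries, 3 per group; the 6 E2 libraries entered only the contrast with E2 and the fit of 18. The authors made these deposited counts from strand-specific reads with STAR (2.7.6a) and featureCounts (2.0.0, strand option 2) on RefSeq genes of GRCm39, 1 table per model with the same 40840 genes. Their deposited tables of DESeq2 comparisons and normalized values were not used.

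Here, in R (4.3.3), genes were kept by filterByExpr, scaled by TMM and fitted with edgeR (4.0.16) as 1 mean per group (robust quasi-likelihood, Benjamini-Hochberg over all genes tested). Log2 CPM used a prior count of 2. Named genes were the 12 most positive and 12 most negative differences past an adjusted p of 0.05, filled up by the smallest p, among genes of at least 1 CPM whose groups did not overlap in a model, plus genes named in the study and up to 4 members of a list by p. The members and the 52 gene lists were chosen with earlier results of these data known. Steps were tested on simulated data. Alternatives used DESeq2 (1.42.0), limma (3.58.1), other filters, a length offset (loess, span 0.5) and each library left out. Replicates are different animals as far as the descriptions say, and no library pair was alike within sampling noise.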

Additional observations from a re-analysis of the deposited data

Results flagged for a closer look

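Genes whose PaPE-1 effect differed between DIO and ob/ob liver by the test of the difference itself were Malat1 (-1.23 on the log2 scale), Tspan4 (1.14) and Rpl22l1 (1.31). Each was called with all 12 libraries and lost the call in some fits with a library left out, 4 of 12 for Malat1, 6 for Tspan4 and 10 for Rpl22l1.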

How the results depend on the processing

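With 3 libraries a group, calls of the difference moved with the fit. Against 2 positive and 1 negative genes, all 18 libraries in 1 fit gave 0 and 0 (smallest adjusted p 0.123, edgeR). DESeq2's Wald test gave 153 and 62, and no filter on low counts 7 and 2. Each model fitted alone gave 243 and 190. There the difference was set against a normal distribution through the standard errors of the models, not by edgeR's test, with no allowance for 3 libraries a group. DESeq2 size factors, limma voom with and without sample weights and a minimum of 10 counts each gave 2 negative. Malat1, Tspan4 and Rpl22l1 were all called in these fits other than that of 18 libraries, and Rpl22l1 was lost with the length trend removed. Genes over 2-fold numbered 176 and 415 without a filter and 52 and 92 with at least 10 counts, against 89 and 217. Calls in DIO liver numbered 470 and 309 with that model fitted alone and 241 and 68 with the length trend removed, against 845 and 491. PaPE-1 minus E2 gave 439 and 539 with 12 libraries, against 908 and 1083. Leaving out 1 library gave 0 to 70 positive and 0 to 44 negative calls (the highest without WP12), 75 to 148 and 204 to 353 genes over 2-fold, 113 to 858 higher and 61 to 526 lower genes in DIO liver (fewest without WV8), and 0 to 2 in each direction in ob/ob liver (2 without L16). Fasn ranged from -1.69 to 0.21 (without WV7) and Esr1 from -0.033 (without L3) to 0.45, and both changed sign. The causes were not tested. No paired analysis was possible because the labels give no replicate numbers shared between groups.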

Other observations

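At an unadjusted p under 0.05, 8.17% of all genes were positive and 6.21% negative, and with the length trend removed 872 and 431 of 13926. Of 25 genes of apolipoproteins and lipoprotein assembly, 8 were positive and 1 negative at this threshold (median difference 0.42). With the length trend removed, 4 were positive and 1 negative (median 0.26). Of 38 proteasome subunit genes, 12 were positive and 0 negative (median 0.25), and 0 and 0 with the length trend removed (median 0.05). Of 33 lysosomal genes, 7 were positive and 0 negative (median 0.23), and 6 and 0 with the length trend removed (median 0.27). Among 26 genes that the study names, 6 were positive and 4 negative (median -0.09), and since they were picked from these samples this is no separate evidence. None of these 4 lists had a member at an adjusted p under 0.05 (edgeR), as 0 members of each passed.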
